A study of Mus musculus with 6 samples.

Results

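Tubulin isotypes are the separate gene products from which the α- and β-tubulin heterodimer is built. The isotypes described here are 10 listed genes of the megakaryocyte and its proplatelets, the β-tubulin genes Tubb1, Tubb2a, Tubb4b, Tubb5 and Tubb6 and the α-tubulin genes Tuba1a, Tuba1b, Tuba1c, Tuba4a and Tuba8. They were chosen by name, and 9 of the 10 had an array row with a single gene symbol, among 30063 genes measured in all. The only row that names Tuba1b also names Gm5620, so Tuba1b was not analysed here. A gene with several rows is represented by its brightest row over all arrays.

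The samples were megakaryocytes sorted from the bone marrow of female C57 mice, from animals with acute myeloid leukaemia (AML) induced by MLL-AF9, a fusion oncogene, and from healthy control animals. The sort took cells of high side scatter and high CD41 with a DNA content of at least 8N, and the RNA was measured on whole-transcript arrays, 3 for AML and 3 for control. Within a group the arrays are biological replicates by their titles. The labels give no age, no animal numbers, and no account of how the fusion was introduced or whether animals were pooled, so the p-values reflect only the spread among these samples, which may be in part technical. Values are on a log2 scale after RMA, ± is the SD over n = 3 arrays, and differences are AML minus control.

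Microtubules grow by the end-to-end addition of αβ-tubulin dimers. In the mature megakaryocyte they slide past each other to extend proplatelets, and in the platelet they coil beneath the membrane as the marginal band that keeps the disc shape. β1-tubulin, the product of Tubb1, is largely restricted to megakaryocytes and platelets and is the main β isotype of the marginal band, while the products of Tubb5, Tubb4b, Tuba1a, Tuba1b and Tuba1c are made in many cell types. Tuba4a and Tuba8 encode α isotypes that are known in platelets.

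The isotypes did not pass the test for a difference between AML and control. With limma, 0 of the 9 measured isotypes had an adjusted p below 0.05, where 10.7% of all genes did (4.49% higher and 6.25% lower in AML), and 1 of the 9 had an unadjusted p below 0.05, where 32.8% of all genes did. Differences ran from -0.27 for Tubb6 to 0.45 for Tubb1, with 6 isotypes above 0 and 3 below. Their median was 0.14, against 0.11 over all genes, so that relative to all genes the isotypes stood at 0.03. Intervals were wide for several isotypes, so the missed threshold does not show that their levels were alike.

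To show the promoter sequence of 2 isotypes that varied with megakaryocyte markers, Tubb1 and Tuba8, beside that of a broadly made one, Tubb5, the 250 bases upstream of the RefSeq start are given for Tubb1 (chr2:174450345-174450594, + strand), Tuba8 (chr6:121210484-121210733, + strand) and Tubb5 (chr17:35838302-35838551, - strand), in the build GRCm38.p6 and 5′ to 3′ in the direction of the gene. Capitals mark the dinucleotide CG.
Tubb1: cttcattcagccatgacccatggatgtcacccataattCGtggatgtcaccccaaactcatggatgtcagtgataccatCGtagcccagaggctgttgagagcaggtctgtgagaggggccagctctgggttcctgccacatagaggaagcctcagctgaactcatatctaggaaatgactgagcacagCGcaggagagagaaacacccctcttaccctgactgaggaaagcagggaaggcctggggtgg
Tuba8: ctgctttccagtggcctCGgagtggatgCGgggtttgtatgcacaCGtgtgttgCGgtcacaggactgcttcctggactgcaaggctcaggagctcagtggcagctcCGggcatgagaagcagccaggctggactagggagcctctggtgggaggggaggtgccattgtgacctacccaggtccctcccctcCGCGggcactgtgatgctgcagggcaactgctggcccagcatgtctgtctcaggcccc
Tubb5: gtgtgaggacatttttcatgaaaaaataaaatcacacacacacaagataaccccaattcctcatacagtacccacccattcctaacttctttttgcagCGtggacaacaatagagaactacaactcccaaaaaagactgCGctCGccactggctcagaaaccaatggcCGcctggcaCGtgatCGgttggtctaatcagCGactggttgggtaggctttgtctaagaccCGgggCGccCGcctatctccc

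The window of Tubb1 holds 3 CG dinucleotides, that of Tuba8 holds 7 and that of Tubb5 holds 10, against a median of 6 over 32851 RefSeq windows of the same length. Of the listed genes, 9 had a window, and their CG count did not divide lineage from broadly made isotypes: it was 20 for Tuba4a, 4 for Tuba1c, 11 for Tuba1a, 13 for Tubb4b, 22 for Tubb2a and 35 for Tuba1b. On both strands these were searched for the GATA motif AGATAA, which 9.99% of all windows hold, for the NF-E2 core TGAGTCA, held by 4.46%, and for the ETS motif CGGAAG, held by 13.6%. None of the motifs contains another. The only match was an AGATAA in the window of Tubb5, 206 to 201 bases upstream of the start. Absence of a match says only that these letters are not in this window.

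Tubb1, the lineage-restricted β isotype, had the largest difference. It stood at 9.57, 8.99 and 9.63 on AML arrays 1, 2 and 3, and at 9.28, 8.80 and 8.78 on control arrays 1, 2 and 3. The groups overlapped, because AML array 2 lay below control array 1, and AML arrays 1 and 3 lay above every control array. The means were 9.40 ± 0.36 and 8.95 ± 0.28, a difference of 0.45 (SE 0.21, 95% CI -0.04 to 0.94), or 1.36-fold, with an adjusted p of 0.180 by limma. The interval reaches from 0.970-fold to 1.92-fold. Leaving out any single array kept the difference above 0, from 0.33 to 0.65, and never brought the adjusted p below 0.0821.

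**Figure D1:**
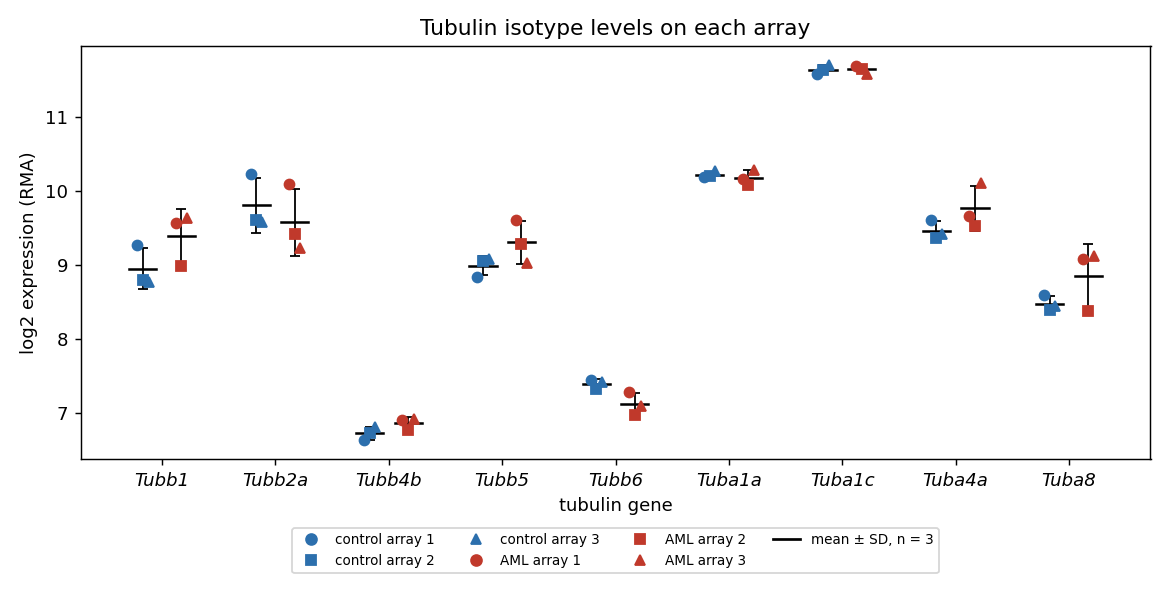
Log2 expression of the 9 measured tubulin genes on each array (blue, control; red, AML; the marker shape gives the array number), with the mean and SD of each group (n = 3) in black. In Tubb6 all AML values lie below all control values, whereas in the other 8 genes the groups overlap.

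Tubb2a, a β isotype of many tissues, had the widest spread. Its level was 10.09, 9.42 and 9.23 on the AML arrays and 10.23, 9.61 and 9.58 on the control arrays. The array numbered 1 of each group was the highest of its group, and the range within AML, 0.86, exceeded the difference between the groups, -0.23 (95% CI -0.85 to 0.39, adjusted p = 0.550). Of genes at or above the median level, 97.7% had a smaller pooled SD than Tubb2a. Without control array 1 the difference was -0.01, without AML array 3 it was -0.05 and without AML array 1 it was -0.48, so its size depended on single arrays.

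Tubb5, a β isotype made in most cells, stood at 9.61, 9.28 and 9.03 on the AML arrays and at 8.85, 9.05 and 9.08 on the control arrays. AML arrays 1 and 2 were above every control array, and AML array 3 lay among the control values. The means of 9.31 ± 0.29 and 8.99 ± 0.13 differed by 0.31 (95% CI -0.05 to 0.68, adjusted p = 0.192). With arrays weighted by quality, Tubb5 passed upward at 0.42 (adjusted p = 0.0414), a setting under which 26.1% of all genes passed.

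Tubb6, a further β isotype, was the only one whose groups did not overlap, as 41.3% of all genes did not and 13.1% did not with AML lower. It was at 7.29, 6.98 and 7.10 on the AML arrays, all below the control values of 7.44, 7.33 and 7.42. The means were 7.12 ± 0.16 and 7.40 ± 0.06, a difference of -0.27 (95% CI -0.50 to -0.05), and the unadjusted p of 0.0250 became 0.108 after adjustment over all genes. Relative to the median over all genes its difference was -0.38. With each array centred on its median it was -0.39, with an adjusted p of 0.0528, and after renewed quantile normalization it was -0.15, with an adjusted p of 0.370.

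Tubb4b, a broadly made β isotype, differed little between arrays. Its values were 6.91, 6.77 and 6.92 in AML and 6.64, 6.74 and 6.82 in control, which overlap. The difference was 0.14 (95% CI -0.06 to 0.33, adjusted p = 0.269).

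Among the α isotypes, Tuba8 and Tuba4a stood higher on 2 of the 3 AML arrays than on any control array. Tuba8 was at 9.08, 8.37 and 9.13 on the AML arrays, against 8.59, 8.40 and 8.45 on the control arrays. AML array 2 had the lowest value of all 6, and the other AML arrays had the highest. The means were 8.86 ± 0.42 and 8.48 ± 0.10, a difference of 0.38 (95% CI -0.09 to 0.85, adjusted p = 0.217). Without AML array 2 the difference was 0.62 and passed (adjusted p = 0.0227), where 4.90% of all genes passed.

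Tuba4a was at 9.66, 9.53 and 10.11 on the AML arrays and at 9.61, 9.37 and 9.42 on the control arrays. AML array 3 stood clear of the rest, and AML array 2 lay between control arrays 3 and 1. The means of 9.77 ± 0.30 and 9.47 ± 0.13 differed by 0.30 (95% CI -0.07 to 0.67, adjusted p = 0.215). Without AML array 3 the difference was 0.13, and without AML array 2 it was 0.42.

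Tuba1a and Tuba1c, the α isotypes common to most cells, were measured with narrow intervals around 0. Tuba1a stood at 10.16, 10.09 and 10.29 in AML and at 10.20, 10.21 and 10.27 in control, a difference of -0.04 (95% CI -0.23 to 0.14, adjusted p = 0.701). For Tuba1c the values were 11.69, 11.65 and 11.59 in AML and 11.59, 11.63 and 11.71 in control, a difference of 0.002 (95% CI -0.17 to 0.17, adjusted p = 0.984). The interval of Tuba1c excludes changes beyond 0.891-fold and 1.13-fold on the deposited scale. Both directions depend on the scaling. Tuba1a turned to 0.04 under renewed quantile normalization, and Tuba1c to -0.12 under median centring.

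The row that stands for Tuba1c carries chromosome 13 in its name, while RefSeq places the gene on chromosome 15. Row name and RefSeq chromosome are the same for 99.8% of 28038 genes. A second Tuba1c row, dimmer and named for chromosome 15, was at 9.65, 9.60 and 9.77 in AML and at 9.68, 9.68 and 9.75 in control. Its difference was -0.03 (95% CI -0.20 to 0.15, adjusted p = 0.818), also with overlapping groups. The values of this row had the same order over all arrays as those of Tuba1a. It may therefore not read Tuba1c apart from Tuba1a, which was not tested. The coding sequences of the α-tubulin genes, and those of the β-tubulin genes, are close to each other and have processed copies in the genome, so that signal shared between rows leaves each single value uncertain.

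**Figure D2:**
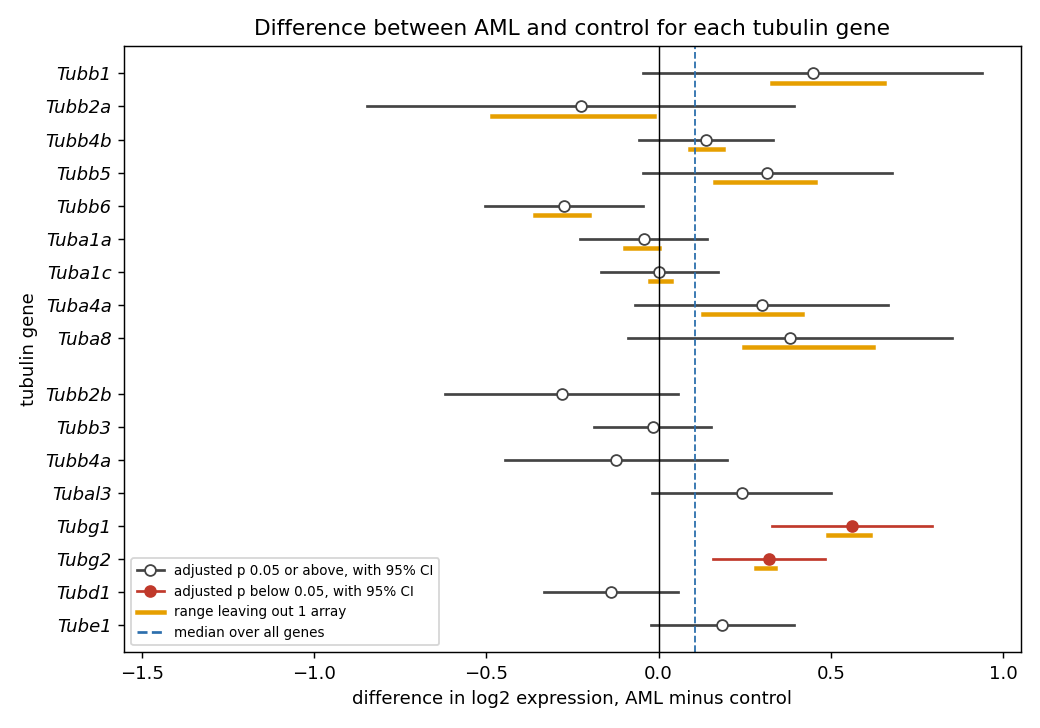
Difference in log2 expression, AML minus control, of the 9 measured isotypes (upper block) and of 8 other tubulin genes (lower block), with 95% CI from limma, filled red where the adjusted p was below 0.05. Orange bars, drawn for the isotypes and for Tubg1 and Tubg2, span the values with 1 array left out, and the dashed line is the median over all genes, 0.11. The γ-tubulin genes Tubg1 and Tubg2 are the only ones past the threshold.

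Tubb1, Tuba4a and Tuba8 varied between the AML arrays in one order, lowest on array 2 and highest on array 3. The same order was found in all 14 measured markers of megakaryocytes and platelets, among them Itga2b, the gene of the CD41 used in the sort, which stood at 9.35, 8.71 and 9.61. It was also found in Tubb4b and Tuba1a, hence in 5 of the 9 isotypes, and in 20.6% of all genes. The mean over the 14 markers was 9.60, 9.31 and 10.01 on the AML arrays and 9.75, 9.37 and 9.43 on the control arrays, so the groups overlapped. In bulk RNA of a sort, fewer cells of a type and less RNA per cell cannot be told apart.

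**Figure D3:**
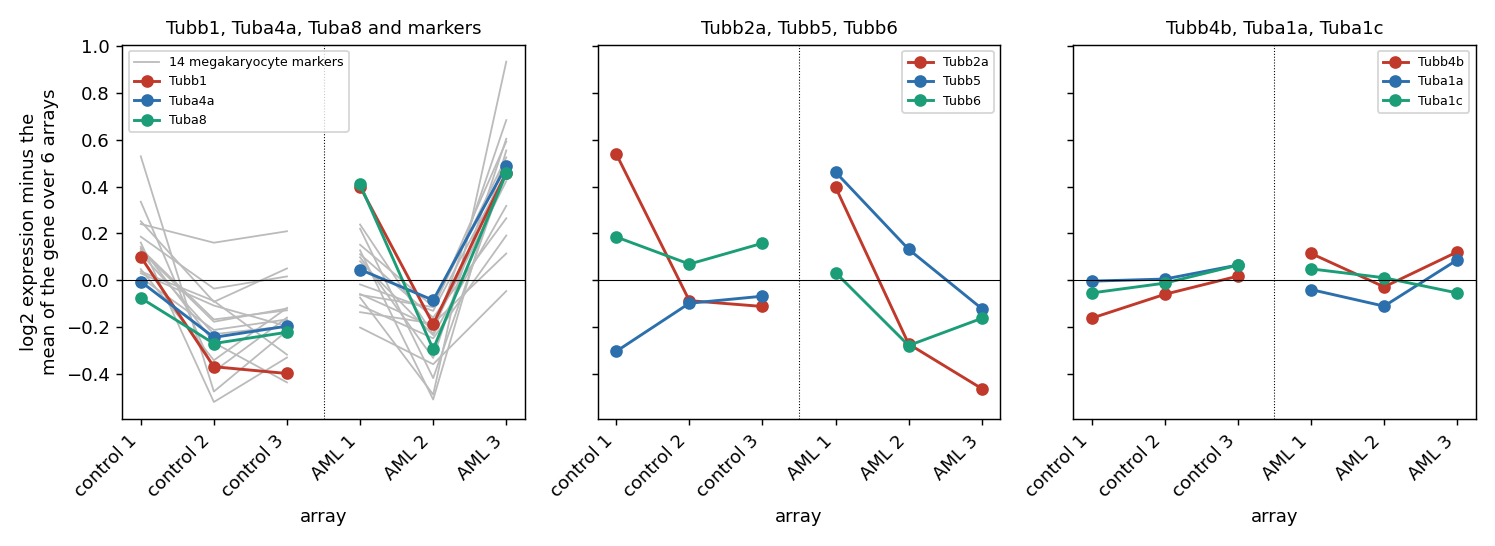
Log2 expression of each isotype minus its own mean over the 6 arrays, by array, with the 14 megakaryocyte markers in grey in the left panel. Arrays of a group have no order, and lines join the values of a gene within a group. Tubb1, Tuba4a and Tuba8 are lowest on AML array 2 and highest on AML array 3, as all 14 markers are, and Tubb2a is highest on the array numbered 1 of each group.

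Set against that marker mean on the same array, Tubb1, Tuba4a and Tuba8 had higher AML values without overlap. The scale was chosen after the values were seen and was used without a test. They were picked on the same arrays for varying with the markers. The AML ranges of Tubb1, Tuba4a and Tuba8 were 0.65, 0.57 and 0.75. A narrower AML spread after subtracting a mean of like order and size was thus built in, and the separation is a description only. Tubb4b and Tuba1a had the same AML array order but smaller AML ranges, 0.15 and 0.20. Both overlapped on this scale, with differences of 0.007 and -0.17. Their AML SD widened from 0.08 to 0.29 and from 0.10 to 0.25. Tubb1 minus the marker mean was -0.03, -0.33 and -0.38 on the AML arrays and -0.47, -0.56 and -0.65 on the control arrays, a difference of 0.32. For Tuba4a the values were 0.06, 0.22 and 0.09 against -0.13, 0.01 and -0.01, a difference of 0.17. Tuba8 gave -0.52, -0.94 and -0.89 against -1.15, -0.97 and -0.98, a difference of 0.25, and the gap between its groups was narrow. On this scale the groups did not overlap for 4 of the 9 isotypes, 3 of them higher in AML. Over all genes they did not overlap for 10.1% in either direction, 4.37% higher and 5.74% lower. The isotypes were chosen by name, but the scale was chosen after their values were seen, so nothing is read from the count. The separation of Tubb1 and Tuba4a held with each of the 14 markers left out in turn, that of Tuba8 with 13 and that of Tubb6, which had lower AML values, with 10. The 14 markers share their order on the AML arrays, and Tubb1, Tuba4a and Tuba8 were picked on those arrays. These counts therefore lend no support to the separation.

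Differences between 2 isotypes on the same array do not depend on the scaling of whole arrays. Of 36 pairs of isotypes, 13 had groups without overlap, or 36.1%, against 35.8% of all pairs of genes, so the share was near the background. Tubb6 was in 6 of these 13 pairs. Tubb1 minus Tubb6 differed most, from 1.56 ± 0.25 in control to 2.28 ± 0.27 in AML, a difference of 0.72, with an exact two-sided permutation p of 0.1 (0.277 after Benjamini-Hochberg adjustment over the 36 pairs), the smallest p that 3 against 3 arrays allow. Since no adjusted p below 0.1 was possible here, this test cannot decide whether the isotypes changed unequally.

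The nearest patterns to Tubb1 over the 6 arrays, by root mean square distance between mean-centred log2 values, belonged to Gab1, an adaptor of receptor tyrosine kinases (0.0722), the row of the vomeronasal receptor gene Vmn1r119 (0.0856), Gm9199 (0.0881), the trafficking adaptor gene Tom1l1 (0.0890) and Gm3470 (0.0897). None of these 5 passed the threshold (adjusted p from 0.112 for Gab1 to 0.342 for Gm9199). The nearest gene was Cbl, a ubiquitin ligase gene, for Tubb2a (0.137), Ak4 for Tubb4b (0.0181), Ddost for Tubb5 (0.0352) and Leprot for Tubb6 (0.0336). It was Trip4 for Tuba1a (0.0244), Sec13 for Tuba1c (0.00929), Mir1954 for Tuba4a (0.0506) and Gm10139 for Tuba8 (0.0763).

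Outside the listed isotypes, γ-tubulin genes rose. γ-Tubulin does not enter the dimer but nucleates new microtubules within a ring complex. Tubg1 was at 7.77, 7.59 and 7.52 on the AML arrays and at 6.93, 7.15 and 7.11 on the control arrays, with every AML value above every control value. It rose by 0.56 (95% CI 0.33 to 0.79, adjusted p = 0.0167), or 1.48-fold. Tubg2, its close paralog, was at 6.30, 6.19 and 6.19 against 5.93, 5.90 and 5.89, also without overlap, and rose by 0.32 (95% CI 0.16 to 0.48, adjusted p = 0.0321). Tubg1 no longer passed when AML array 2 or either of control arrays 2 and 3 was left out (adjusted p 0.0501 to 0.0625). Tubg2 passed only with all arrays or with AML array 3 left out (adjusted p 0.0595 to 0.129 otherwise). Centring each array on its median put Tubg1 at an adjusted p of 0.0529 and Tubg2 at 0.138.

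Of 8 other tubulins measured, 2 rose and 0 fell, and 4 were at or below the level of the olfactory and vomeronasal receptor genes taken as dim (the 95th percentile of their means, 5.51). Tubb2b, the close paralog of Tubb2a, was at 5.61, 5.43 and 5.27 in AML and at 5.99, 5.52 and 5.64 in control (adjusted p = 0.208), and as in Tubb2a the array numbered 1 was the highest of each group. All 9 measured isotypes lay above that dim level.

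Of 10 genes of the γ-tubulin ring complex and its anchors, 0 rose and 1 fell, Mzt1, a small subunit of the complex, by 0.47 (adjusted p = 0.0296). Of 18 genes that fold tubulin and assemble the dimer, the chaperonin, prefoldin and tubulin cofactors, 0 rose and 1 fell, the prefoldin subunit gene Vbp1, by 0.54 (adjusted p = 0.0230). Tubulin mRNAs are destroyed when free dimer is in excess, through recognition of the nascent chain by TTC5, which recruits the deadenylation machinery with SCAPER. Ttc5 stood at 6.46 ± 0.07 in AML and 6.41 ± 0.08 in control (adjusted p = 0.685). Scaper fell from 6.34 ± 0.17 to 5.53 ± 0.16, by 0.81 (adjusted p = 0.00998), and kept its call without each single array (adjusted p from 0.0140 to 0.04996). Of the 3 genes of this list, Scaper alone passed.

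Of 24 enzymes that modify tubulin, 2 rose and 1 fell, and 11 of the 24 were at or below the dim level. Ttll7, a glutamylase, rose by 0.36 to 3.86, below the dim level, Agbl5, a deglutamylase, rose by 0.26 (adjusted p = 0.0492) and Sirt2, a deacetylase, fell by 0.33 (adjusted p = 0.0492). Leaving out any array ended the calls of Agbl5 (adjusted p 0.0584 to 0.150) and Sirt2 (0.0621 to 0.174), and leaving out any but AML array 3 and control array 1 ended that of Ttll7 (0.0671 to 0.123). After renewed quantile normalization none of these 3 passed (adjusted p 0.211 for Ttll7, 0.0682 for Agbl5 and 0.268 for Sirt2).

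Of 19 genes that bind, cap or sever microtubules, 1 fell, Clasp2, by 0.42 (adjusted p = 0.0494), and 7 were at or below the dim level. Of 17 motor genes 1 fell, Dync1i2, by 0.39 (adjusted p = 0.0376), and 3 were at or below that level. Dync1i2 encodes an intermediate chain of the dynein that drives microtubule sliding in proplatelets. Leaving out AML array 2 or either of control arrays 2 and 3 ended the calls of Mzt1, Vbp1, Clasp2 and Dync1i2 (adjusted p from 0.0591 to 0.167). Leaving out AML array 1 ended those of Mzt1, Clasp2 and Dync1i2, leaving out AML array 3 those of Clasp2 and Dync1i2, and leaving out control array 1 that of Dync1i2 (adjusted p 0.0563 to 0.104). Dync1i2 also missed the threshold after renewed quantile normalization (adjusted p = 0.0869). Of 20 proplatelet regulators outside the microtubule, 1 rose and 4 fell, or 25%. The largest fall among them was that of Rock1, by 0.96 (adjusted p = 0.0013). Across all of these lists, 119 genes were measured, and 5 rose and 10 fell, or 12.6%, near the 10.7% of all genes. With AML array 1 left out the count was 6 and with AML array 2 left out 3, while it was 2 and 3 when control arrays 2 and 3 were the ones left out. Over all 30063 genes the counts with these arrays left out, in the same sequence, were 1938, 1473, 967 and 1058.

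**Figure D4:**
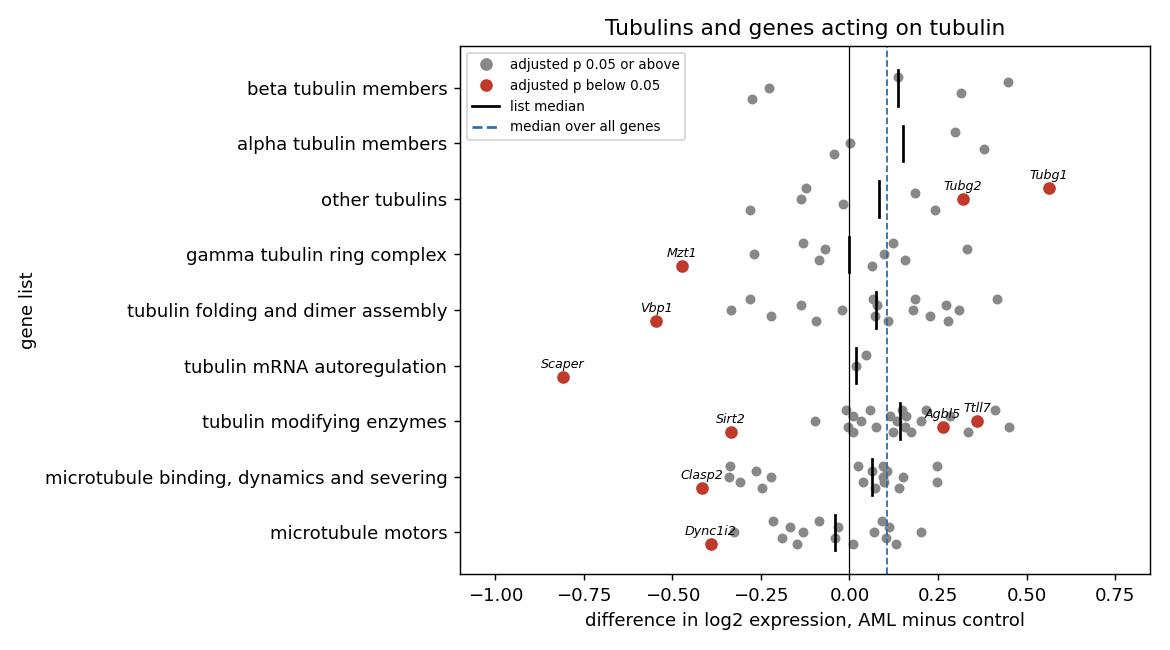
Difference in log2 expression, AML minus control, of each gene in 9 lists of tubulins and of genes that act on tubulin. Red points had an adjusted p below 0.05 and are named, black ticks are list medians, and the dashed line is the median over all genes, 0.11. No listed isotype passed, Tubg1 and Tubg2 passed upward, and Scaper has the largest fall.

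Of 14 proliferation markers, 0 rose and 0 fell by limma, with list medians per array of 6.74 to 7.06 in AML and 6.71 to 6.90 in control. Of 14 megakaryocyte markers 0 rose and 1 fell. Markers of other cells that the gate could hold moved as well. Of 8 granulocyte-monocyte progenitor markers, 2 rose and 1 fell, and their summed level on the linear scale was 4868 to 5803 in AML and 3837 to 5055 in control. Gfi1, a transcription factor, rose by 0.59 and the protease gene Ctsg by 0.95. Fcnb fell by 2.78, the largest change among these 8, so the list did not move in 1 direction. Of 11 neutrophil markers 10 fell, and their summed level was 7457 to 9502 in AML and 22461 to 26479 in control. Of 13 monocyte and macrophage markers 8 fell (6101 to 8356 against 8296 to 9143), and of 10 eosinophil, basophil and mast cell markers 7 fell (6174 to 7802 against 11159 to 13571). The monocyte and macrophage sum is weighted to its brightest gene, Ly6c2, which stood 0.32 higher in AML and did not pass. Log2 medians of that list per array were 6.96 to 7.39 in AML and 8.45 to 8.85 in control. Of 6 erythroid markers 2 fell, of 8 dendritic cell markers 3 fell, of 9 endothelial and stromal markers 4 fell, and of 11 markers of B, T and NK cells 1 rose and 3 fell. None of the neutrophil or of the monocyte and macrophage markers was at or below the dim level. At or below it were 3 of the 6 erythroid and 3 of the 8 dendritic cell markers. So were 4 of the 9 endothelial and stromal markers and 6 of the 11 markers of B, T and NK cells. The part of these cells in the values of the isotypes and of the γ-tubulin genes was not tested. Array medians over all genes were 5.29 to 5.32 in AML and 5.16 to 5.24 in control.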

How the data were processed

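Total RNA of sorted megakaryocytes was labelled with biotin and hybridised to Affymetrix arrays, per the labels' protocols. The authors deposited log2 values, and the submitters' processing notes name RMA as the method. No RMA version and no genome build are given in the sources used here. RMA equalises the distribution of values between arrays, so a change common to most genes would be hidden in part. Of 72688 rows, 30604 had a single gene symbol, updated through RefSeq (GRCm38.p6) by gene number (22818), symbol (7476) or synonym (308), with 2 not matched. They gave 30063 genes, 429 of them with more than 1 row.

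AML was tested against control over all genes with limma 3.58.1 (lmFit and eBayes, R 4.3.3), two-sided, with Benjamini-Hochberg adjustment and a threshold of 0.05. The test was checked on simulated data. Levels were compared between arrays, not between genes, since probes differ in response. The members and lists were chosen with earlier results of these data known. All listed isotypes were named. Of the lists of tubulins and of genes acting on tubulin, up to 4 genes past the threshold with the smallest p were named. Other genes were named where a sentence turned on them, among them Tubb2b. The lists of cell type markers enter mainly as counts and levels, and most of their genes past the threshold are not named. Nearest patterns were sought among genes at or above the median level. The genes of proplatelet regulation outside the microtubule enter as a count, with only Rock1 named, for the largest fall. Array numbers were not taken as pairs, since the deviations of same-numbered arrays correlated at -0.36, 0.14 and -0.29 across genes. As alternatives, the model was given a replicate block, array weights or a mean-variance trend, values were renormalized by cyclic loess, by quantiles or by median centring, dim genes below the median were left out, the rows of a gene were averaged, and each array was left out. The second Tuba1c row and the marker mean were added after seeing the data. Python 3.11.15, pandas 2.3.3, numpy 2.4.6, statsmodels 0.14.6 and matplotlib 3.10.9 were used.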

Additional observations from a re-analysis of the deposited data

How the results depend on the processing

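The number of arrays limits precision, and the 95% intervals of the log2 difference hold 0 for 8 of the 9 isotypes, that of Tubb1 reaching from 0.970-fold to 1.92-fold and that of Tubb2a from 0.556-fold to 1.31-fold. Over the 9 isotypes and 15 alternatives, 135 values in all, 121 kept their direction and their side of the threshold, 2 came to pass it (Tuba8 at 0.62 without AML array 2, Tubb5 at 0.42 with array weights) and 12 turned in sign, none of them past the threshold. Tuba1a turned to 0.038 under renewed quantile normalization and ran from -0.098 to 0.0012 with 1 array left out. Tuba1c turned to -0.017 under renewed quantile normalization and under cyclic loess, -0.12 under median centring, -0.0116 with the mean of its rows and -0.0256 with its second row, and ran from -0.0248 to 0.035 with 1 array left out. Tubb2a turned to 0.073 with array weights. Ttc5 turned to -0.074 under median centring, and Itga2b ran from -0.0075 to 0.44 with 1 array left out. The cause of these turns was not tested.

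The count of isotypes past the threshold was 0 with the replicate block, 1 with array weights and 0 to 1 with 1 array left out. With that block none of Tubg1, Tubg2, Mzt1, Vbp1, Scaper, Ttll7, Agbl5, Sirt2, Clasp2 and Dync1i2 passed (adjusted p 0.0561 to 0.1595). The count over all genes, 3230, was 1067 with the replicate block, 7853 with array weights and 967 to 3606 with 1 array left out. The count over 119 genes acting on tubulin or on proplatelets, 15, was 1 with the replicate block, 31 with array weights and 2 to 12 with 1 array left out. Among genes at or above the median level it was 24 of 95, where 3366 of 15032 genes in all passed. Median centring left 505 higher and 2712 lower genes of all, against 1350 and 1880, and 1 higher and 17 lower of the 119, against 5 and 10.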
